A study of Mus musculus with 6 samples.

Results

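The genes described here mark CD4+ T cells and their main states: *Cd4*, *Foxp3*, *Il2ra*, *Ikzf2*, *Gata3*, *Tbx21*, *Tcf7*, *Lef1* and *Bach2*. They were chosen by gene symbol and make up 9 of the 54532 genes in the expression table. Bulk RNA sequencing was run on peri-infarcted and infarcted heart tissue from 3 WT mice and 3 mice lacking the TSLP receptor (TSLPR KO, *Crlf2-/-*). TSLP is a cytokine best known from barrier epithelia, and *Crlf2* encodes the receptor chain that binds it. All 6 mice, WT mice included, were labelled C57BL/6 (C57BL/6J in the study's methods) and had the left anterior descending coronary artery ligated 7 days before tissue was taken, so no uninjured heart served as a control. The knockout is carried by every cell of the mouse. WT mice were bought from a supplier and *Crlf2-/-* mice were generated by a company, so supplier and genotype cannot be told apart.

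CD4 is the coreceptor that lets helper T cells read antigen on MHC class II. Regulatory T cells are defined by the transcription factor FOXP3 and usually carry high levels of the IL-2 receptor alpha chain (*Il2ra*) and of Helios (*Ikzf2*), and they restrain inflammation in the healing infarct. T-bet (*Tbx21*) directs helper cells to the type 1 (Th1) programme and GATA3 to the type 2 (Th2) programme. TCF1 (*Tcf7*) and LEF1 are partner factors of beta-catenin that, with the repressor BACH2, mark naive and memory T cells.

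The fragments assigned to listed genes ranged from 18508646 to 19682428 per library. Values are in FPKM, fragments scaled to gene length and to library size, and the fragments behind each value were worked out from the FPKM. *Crlf2* itself had 917, 813 and 707 fragments in WT hearts and 437, 651 and 667 in *Crlf2-/-* hearts. Its level was 24.5 ± 2.57 FPKM (SD, n = 3) against 17.2 ± 3.54 FPKM, with every *Crlf2-/-* library below every WT library (log2 fold change -0.52, SE 0.17, limma adjusted p = 0.521). Transcript thus remained in the knockout hearts. Which exons were removed is not given in the sources used here, so a count over the whole gene does not check the genotype. The extraction text of the labels names another tissue, the retina. None of 6 retina markers passed the filter on low values (summed level 0.11 to 0.195 FPKM per library), while 8 of 8 cardiomyocyte markers did (684 to 1960 FPKM).

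The 8 members other than *Foxp3* have the same start and end in the table as in the GENCODE M21 annotation of GRCm38. These are *Cd4* (ENSMUSG00000023274) from 124864692 to 124888221 on chromosome 6 (minus strand), *Il2ra* (ENSMUSG00000026770) from 11642807 to 11693193 on chromosome 2 (plus strand), *Ikzf2* (ENSMUSG00000025997) from 69531214 to 69687245 on chromosome 1 (minus strand), *Gata3* (ENSMUSG00000015619) from 9857078 to 9890034 on chromosome 2 (minus strand). The others are *Tbx21* (ENSMUSG00000001444) from 97098071 to 97115331 on chromosome 11 (minus strand), *Tcf7* (ENSMUSG00000000782) from 52252371 to 52283014 on chromosome 11 (minus strand), *Lef1* (ENSMUSG00000027985) from 131110471 to 131224356 on chromosome 3 (plus strand), *Bach2* (ENSMUSG00000040270) from 32238804 to 32586108 on chromosome 4 (plus strand).

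All 9 members were scarce transcripts in this tissue. Ordered by mean FPKM over the 6 libraries, *Cd4* stood at 1.45, *Tcf7* at 1.39, *Bach2* at 0.761, *Il2ra* at 0.686, *Ikzf2* at 0.478, *Tbx21* at 0.435, *Gata3* at 0.136, *Lef1* at 0.0458 and *Foxp3* at 0.0392. The ranges over libraries overlapped between each gene and the next in this order, with the exception of *Gata3* and *Lef1*. *Cd4* lay at the 27.8th percentile of mean FPKM among the 15520 genes tested and *Gata3* at the 2.34th. A gene was tested if 3 or more libraries held 10 or more of its fragments and the total reached 15. *Cd4*, *Il2ra*, *Ikzf2*, *Tcf7* and *Bach2* had 10 or more fragments in 6 of 6 libraries and *Tbx21* in 5, and these levels could be measured. *Gata3* and *Lef1* reached 10 fragments in 3 of 6 libraries and passed at the margin. *Foxp3* reached it in 0 of 6 and was too low to test.

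**Figure D1:**
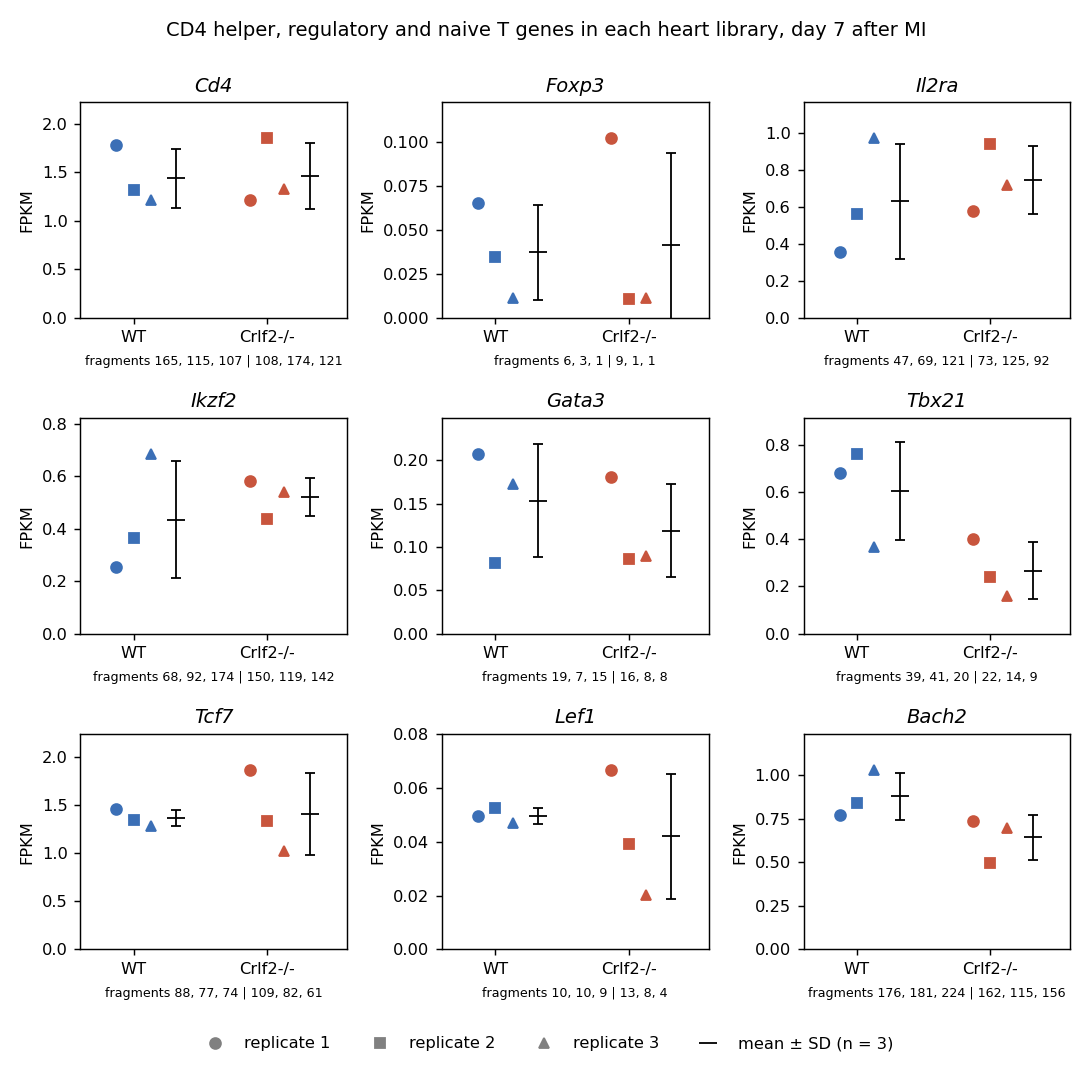
FPKM (vertical axis, from 0, a separate scale per panel) of the 9 members in each library, with the replicates as separate symbols, the mean ± SD (n = 3) beside each group (the lower bar for *Foxp3* ends at 0) and the fragments of WT replicates 1 to 3 and of *Crlf2-/-* replicates 1 to 3 under each panel. *Cd4* and *Tcf7* overlap fully between the groups, *Tbx21* overlaps by 1 library, and the *Crlf2-/-* values of *Bach2* all lie under the WT values.

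No member was called different between *Crlf2-/-* and WT hearts. Of the 8 members tested, 0 had a limma adjusted p of at most 0.05 with a log2 fold change of 0.5 or more in size, where 0.0129% of all tested genes did (2 of 15520). At an unadjusted p under 0.05 the background was 6.58% of tested genes, 3.36% lower and 3.22% higher in *Crlf2-/-* hearts, and 1 member, *Tbx21*, fell on that side, lower. The groups did not overlap for 11.7% of tested genes in either direction and for 6.37% with *Crlf2-/-* below WT, and 1 member, *Bach2*, was of the latter kind. A count of 1 member in 8 is too small to be set apart from these shares. The median log2 fold change of the 8 tested members was -0.037, with 4 above and 4 below 0, and that of all tested genes was -0.004. In bulk tissue a lower level can reflect fewer cells of a type or less RNA per cell, and these cannot be told apart.

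**Figure D2:**
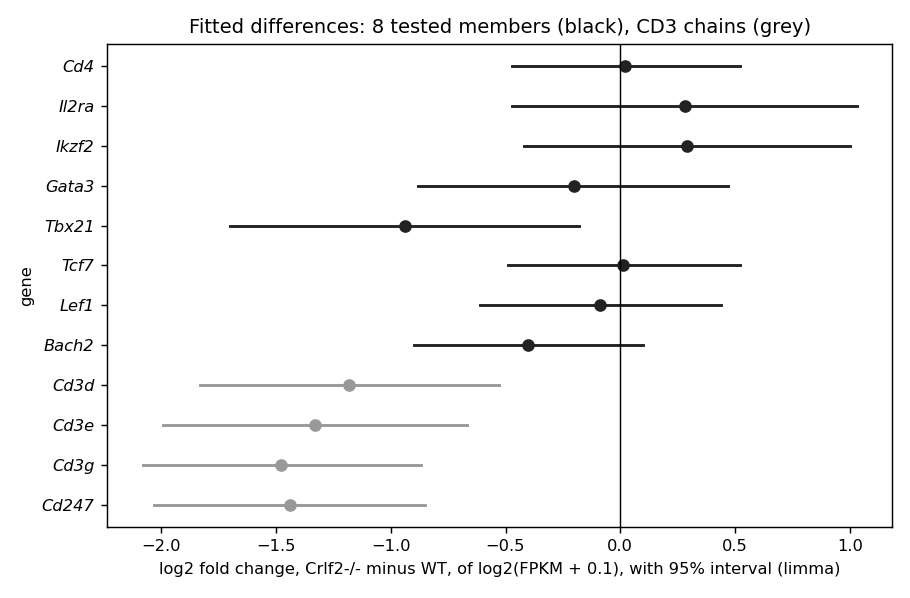
Fitted log2 fold change (horizontal axis, *Crlf2-/-* minus WT, on the log2(FPKM + 0.1) scale) with its 95% interval from limma for the 8 tested members (black) and the 4 CD3 chain genes (grey). The interval of *Tbx21* alone among the members lies wholly below 0, and those of all 4 CD3 chain genes do, though none of these has an adjusted p of at most 0.05.

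*Cd4* was the highest of the members and was nearly equal in the groups. WT hearts held 165, 115 and 107 fragments (1.78, 1.32 and 1.21 FPKM) and *Crlf2-/-* hearts 108, 174 and 121 (1.21, 1.85 and 1.33 FPKM). The highest and the lowest libraries of both groups lay at almost the same levels. The mean was 1.44 ± 0.3 FPKM in WT and 1.46 ± 0.341 FPKM in *Crlf2-/-* hearts (SD, n = 3). The log2 fold change was 0.02 (SE 0.22, 95% interval -0.47 to 0.52, limma adjusted p = 0.996), an interval that leaves room for a moderate difference in either direction. The counting error of the summed fragments was 0.103 on the log2 scale, under the fitted SE, so the spread between hearts rather than depth set the width of this interval.

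The genes of the T cell receptor complex did not share that level pattern. The CD3 chain genes *Cd3d*, *Cd3e*, *Cd3g* and *Cd247*, which all T cells need for signalling, were lower in every *Crlf2-/-* library than in any WT library, with log2 fold changes of -1.18, -1.33, -1.48 and -1.44. All 4 had an unadjusted p under 0.05, none was called, and their adjusted p ran from 0.149 for *Cd247* and *Cd3g* to 0.304 for *Cd3d*. Their summed level was 3.02 to 5.29 FPKM in WT and 1.33 to 1.45 FPKM in *Crlf2-/-* hearts. Of 15 pan T cell genes, 12 were lower at an unadjusted p under 0.05, with *Trbc2* nearest to the threshold (log2 fold change -1.56, adjusted p = 0.0637). Both CD8 chain genes were lower, *Cd8a* by a log2 fold change of -1.62 (adjusted p = 0.216) and *Cd8b1* by -1.55 (adjusted p = 0.0778). None of these genes passed the adjusted threshold in the limma fit either. The study tested counts of the same libraries with DESeq2 at the same thresholds, and lists *Cd3e*, *Lck*, *Cd6* and *Icos* among the downregulated genes. The limma fit on log2 FPKM is a different test and called none of these. Over the whole table it called 2 of 15520 genes. The study reports many more differential genes from these libraries than the limma fit called. The lack of a call in the limma fit is therefore not particular to the members or to the T cell genes.

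Each heart was therefore also described by the ratio of *Cd4* to these genes within its own library. The log2 ratio of *Cd4* to the summed *Cd3d*, *Cd3e* and *Cd3g* was -0.97, -1.79 and -1.06 in WT hearts and -0.18, 0.48 and 0.16 in *Crlf2-/-* hearts. Every *Crlf2-/-* ratio lay above every WT ratio. The difference in log2 ratio was 1.43, with a two-sided exact permutation p = 0.1, the smallest that 3 against 3 allows, and 0.167 after Benjamini-Hochberg adjustment over the 5 ratios computed. The log2 ratio of *Cd4* to *Cd8a* was -0.56, -1.19 and -0.63 in WT and -0.11, 1.68 and 0.96 in *Crlf2-/-* hearts. It differed by 1.64 (exact permutation p = 0.1, adjusted 0.167), again with no overlap. Because *Cd4* itself was level, both differences lie in the denominators, whose lower level was known when the ratios were chosen, so they are a description and add no separate evidence.

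*Cd4* is also carried by some mouse dendritic cells, so genes of other cells were read beside it. Of 9 dendritic cell markers, 2 had fitted values above 0 and 7 below, and 3 were lower at an unadjusted p under 0.05, none of them called. These were the lectin genes *Clec10a* and *Cd209a* (log2 fold changes -0.86 and -0.99) and the dendritic cell factor *Zbtb46* (-0.42), and the list summed to 16.2 to 20.5 FPKM in WT and 10.3 to 15.8 FPKM in *Crlf2-/-* hearts. The 11 monocyte and macrophage markers summed to 2510 to 4440 FPKM in WT and 3000 to 3620 FPKM in *Crlf2-/-* hearts, with 1, the Fc receptor gene *Fcgr1*, higher (0.58). All markers of both lists had fragments and passed the filter. Their part in the *Cd4* level was not tested. *Ccl21a*, the chemokine gene of lymphatic and lymph node stroma, varied widely, with 178, 52 and 10 fragments in the WT hearts against 5, 205 and 6 in the *Crlf2-/-* hearts. The library with most *Ccl21a* in each group, WT replicate 1 and *Crlf2-/-* replicate 2, was also the library with most *Cd4*. Leaving out both, a setting chosen after the data were seen that takes the highest *Cd4* value from each group, gave a log2 fold change of 0.02 (95% interval -0.51 to 0.55), and the part of lymphatic or lymph node tissue in the *Cd4* level was not tested. *Ccl21a* has near-identical copies, so its count is uncertain. The other lymph node marker that passed the filter, *Cr2*, was at most 0.156 FPKM, and 1 of the 5 markers had no fragment.

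*Foxp3*, the defining gene of regulatory T cells, was at the limit of what these libraries could count. It had 6, 3 and 1 fragments in WT hearts and 9, 1 and 1 in *Crlf2-/-* hearts, that is 0.0653, 0.0347, 0.0115 and 0.102, 0.0107, 0.0111 FPKM. In 4 of 6 libraries the count was 3 or fewer, and the highest value of all was in *Crlf2-/-* replicate 1. Summed, there were 10 fragments in WT and 11 in *Crlf2-/-* hearts, a ratio per depth of 1.08 with an exact 95% interval of 0.415 to 2.83 that covers counting error only. A difference within that interval was not detectable at this depth, which includes a loss of more than a factor of 2.

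The gene model adds to this limit. *Foxp3* (ENSMUSG00000039521) lies on the plus strand of chromosome X from 7579676 to 7595243 in the table's annotation. In GENCODE M21 (GRCm38), 31.5% of its exon bases are also exon bases of other listed genes on either strand, *Ccdc22*, *Flicr*, *Gm36995* and *Ppp1r3f*. *Foxp3* has 4577 exon bases there against a deposited gene length of 3989, so this share is for a longer gene model than the deposited one. *Ccdc22*, a gene of endosomal transport, shares 92.6% of its exon bases with *Foxp3* and *Gm36995* and was listed at 0 in 6 of 6 libraries. How the authors' counting treated fragments on shared bases, and whether it used strand, is not given in the sources used here, and the effect on *Foxp3* was not tested. The noncoding neighbour on the same strand, *Flicr*, held 4, 2 and 9 fragments (WT) against 1, 3 and 8 (*Crlf2-/-*). For comparison, 13.7% of exon bases were shared for *Lef1*, 5.83% for *Gata3*, 5.4% for *Bach2* and 1.24% for *Ikzf2*, and none for *Cd4*, *Il2ra*, *Tbx21* and *Tcf7*.

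Ratios with *Foxp3* inherit this limit. The log2 ratio of *Foxp3* to *Cd4* was -3.51, -3.39 and -3.56 in WT and -2.7, -4.14 and -3.69 in *Crlf2-/-* hearts. The groups overlapped and the difference was -0.02 (exact permutation p = 1). The log2 ratio of *Foxp3* to the CD3 chains was -4.48, -5.18 and -4.62 in WT and -2.87, -3.65 and -3.53 in *Crlf2-/-* hearts, a difference of 1.41 (exact permutation p = 0.1, adjusted 0.167). In 5 of 6 libraries *Foxp3* lay under the 0.1 FPKM added before the log, so this ratio mostly follows its denominator. With 0.01 FPKM added in place of 0.1, the difference was 1.281 and the exact permutation p rose to 0.3, so the full separation of the groups was lost.

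**Figure D3:**
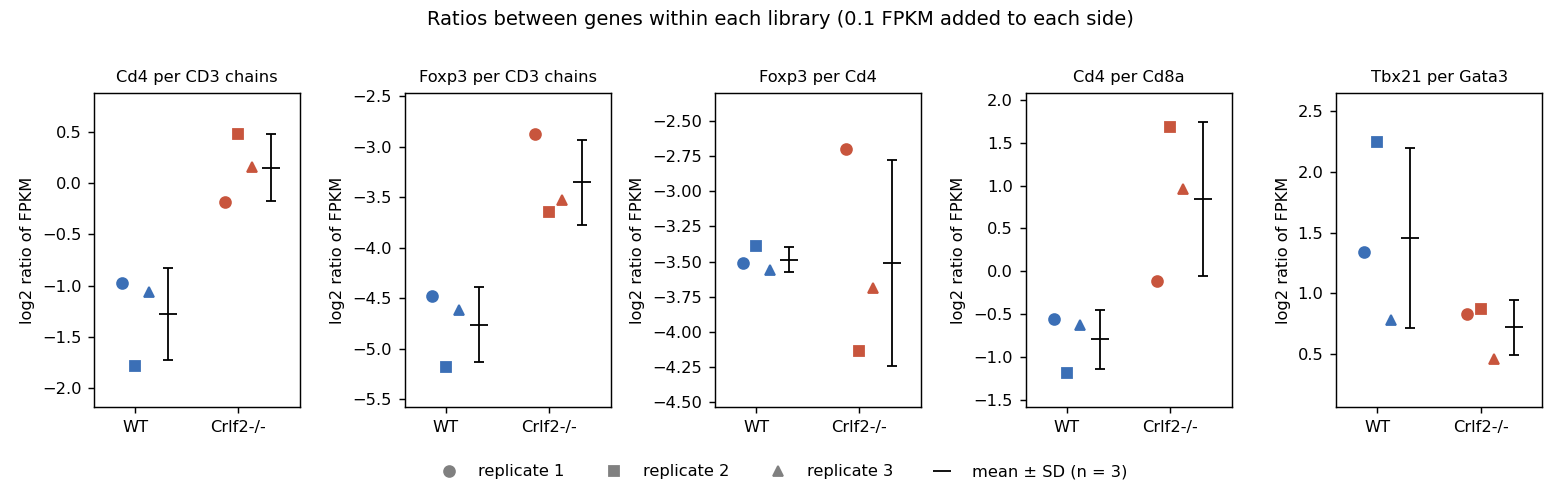
Log2 ratio of FPKM between genes within each library (vertical axis, a separate scale per panel; 0.1 FPKM added to each side), by group, with replicates as symbols and mean ± SD (n = 3). The *Crlf2-/-* libraries lie above the WT libraries for *Cd4* per CD3 chains, for *Cd4* per *Cd8a* and, at this added value but not at 0.01 FPKM, for *Foxp3* per CD3 chains, and overlap them for *Foxp3* per *Cd4* and *Tbx21* per *Gata3*.

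The other regulatory T cell members were countable but uneven between WT hearts. Mean FPKM over the 6 libraries was 0.686 for *Il2ra* and 0.478 for *Ikzf2*, far above the 0.0392 of *Foxp3*. The part of regulatory T cells or of other cells in these levels was not tested. *Il2ra*, the gene of the IL-2 receptor alpha chain, had 47, 69 and 121 fragments in WT hearts (0.357, 0.558 and 0.969 FPKM) and 73, 125 and 92 in *Crlf2-/-* hearts (0.576, 0.938 and 0.715 FPKM). The WT hearts alone spanned the whole range of the *Crlf2-/-* hearts. *Il2ra* gave a log2 fold change of 0.28 (SE 0.33, 95% interval -0.47 to 1.03, adjusted p = 0.988). *Ikzf2*, which encodes Helios, had 68, 92 and 174 fragments in WT hearts (0.254, 0.366 and 0.685 FPKM) and 150, 119 and 142 in *Crlf2-/-* hearts (0.582, 0.439 and 0.542 FPKM). Here too the *Crlf2-/-* hearts lay inside the WT range, and the log2 fold change was 0.29 (SE 0.31, 95% interval -0.42 to 1, adjusted p = 0.983).

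In both genes WT replicate 1 was lowest and WT replicate 3 highest, and these libraries decided the fitted values. Without WT replicate 1 the log2 fold change was -0.01 for *Il2ra* and 0.04 for *Ikzf2*. Without WT replicate 3 it was 0.6 for *Il2ra* (unadjusted p = 0.0689) and 0.61 for *Ikzf2* (unadjusted p = 0.0468, limma adjusted p = 0.657). In *Cd4* the order was the other way, with WT replicate 1 highest and WT replicate 3 lowest. Counting error was 0.126 for *Il2ra* and 0.106 for *Ikzf2* on the log2 scale, again well under the fitted SE.

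Of 16 regulatory T cell genes outside the members, 12 were tested and 1 had an unadjusted p under 0.05. It was *Entpd1*, which encodes the ectonucleotidase CD39 and is not limited to T cells, at 20.4 ± 2.21 FPKM in WT and 15.6 ± 0.729 FPKM in *Crlf2-/-* hearts (log2 fold change -0.38, adjusted p = 0.469). The median over the 12 was 0.048, with 7 above 0 and 5 below. Of the 105 helper and regulatory pathway genes outside the members, 26 were under the filter, and in 3 of these the groups did not overlap, 2 with *Crlf2-/-* below WT and 1 above. The groups did not overlap for 11.7% of tested genes and for 9.18% of the 26815 genes with any fragment. A count of 3 in 26 is too small to be set apart from these shares. The 3 genes are named after their values were seen. *Ctla4*, an inhibitory receptor of regulatory T cells, held 5, 2 and 3 fragments in the WT hearts against 0, 0 and 0 in the *Crlf2-/-* hearts. *Ccr4*, a chemokine receptor of helper and regulatory T cells, went the other way, with 0, 0 and 1 fragments in the WT hearts against 5, 6 and 5 in the *Crlf2-/-* hearts. The Th1 cytokine gene *Ifng* held 7, 9 and 4 fragments (WT) against 3, 1 and 2 (*Crlf2-/-*). A count of 0 in a library allows up to 3 fragments, and none of these genes was tested, so no fold change is given. Of 10 genes of IL-2 signalling, 9 were tested, and 1, the STAT5 target *Cish*, had an unadjusted p under 0.05 (1.21 ± 0.2 FPKM in WT, 0.727 ± 0.183 FPKM in *Crlf2-/-* hearts, log2 fold change -0.67, adjusted p = 0.551). The median of these 9 was -0.083.

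*Tbx21*, the Th1 regulator, had the largest fitted difference of the members. WT hearts held 39, 41 and 20 fragments (0.681, 0.761 and 0.368 FPKM) and *Crlf2-/-* hearts 22, 14 and 9 (0.399, 0.241 and 0.16 FPKM). WT replicate 3 lay just under *Crlf2-/-* replicate 1, and otherwise the *Crlf2-/-* hearts were lower. The mean was 0.603 ± 0.208 FPKM in WT and 0.267 ± 0.121 FPKM in *Crlf2-/-* hearts. The log2 fold change was -0.94 (SE 0.33, 95% interval -1.7 to -0.18), with an unadjusted p of 0.0213 and a limma adjusted p of 0.611, so *Tbx21* was not called. The summed counts, 100 and 45 fragments, gave a ratio per depth of 0.44 with an exact 95% interval of 0.302 to 0.632 for counting error only. Leaving out WT replicate 1, WT replicate 2 or *Crlf2-/-* replicate 3 raised the unadjusted p to 0.0609, 0.0724 and 0.0776, and leaving out WT replicate 3 lowered it to 0.00571, with log2 fold changes from -1.21 to -0.71 over the 6 omissions.

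Genes of the Th1 programme were read beside it. Of 12 listed, 11 were tested, 4 with fitted values above 0 and 7 below. At an unadjusted p under 0.05, 3 were lower in *Crlf2-/-* hearts and 0 higher, where 3.36% and 3.22% of all tested genes were. In 4 the groups did not overlap, these 3 and 1 in the other direction, against 11.7% of all tested genes. The chemokine receptor gene *Cxcr3* was at 4.37 ± 0.369 FPKM in WT and 3.06 ± 0.381 FPKM in *Crlf2-/-* hearts (log2 fold change -0.5, adjusted p = 0.363). *Stat4*, which relays IL-12, was at 0.689 ± 0.109 and 0.366 ± 0.1 FPKM (-0.77, adjusted p = 0.514). *Cxcr6*, a receptor of tissue lymphocytes, was at 7.89 ± 1.7 and 5.22 ± 1.25 FPKM (-0.59, adjusted p = 0.572). The gene in the other direction was *Eomes*, a T-box factor related to T-bet, named after its values were seen, at 0.278 ± 0.0577 and 0.437 ± 0.0944 FPKM (0.51, adjusted p = 0.807). The median over the 11 was -0.28, and none was called.

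T-bet is also a factor of NK cells and CD8+ T cells. Of 7 NK cell markers, all detected, 4 had fitted values above 0 and 3 below, with a median of 0.062, and 2 were lower at an unadjusted p under 0.05, the granzyme gene *Gzma* (log2 fold change -0.77, adjusted p = 0.149) and *Klra8* (-0.49, adjusted p = 0.7). The NK list summed to 7.91 to 8.11 FPKM in WT and 4.66 to 7.62 FPKM in *Crlf2-/-* hearts. Without *Gzma* the other 6 genes summed to 3.79 to 3.94 and 2.61 to 4.98 FPKM, which overlap. The CD8 chains summed to 5.73 to 8.49 and 1.63 to 2.65 FPKM. The part of these cells in the *Tbx21* values was not tested.

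*Gata3*, the Th2 regulator, was near the filter. It had 19, 7 and 15 fragments in WT hearts (0.207, 0.0812 and 0.172 FPKM) and 16, 8 and 8 in *Crlf2-/-* hearts (0.181, 0.0862 and 0.0892 FPKM). Both groups held high and low libraries. The log2 fold change was -0.2 (SE 0.29, 95% interval -0.88 to 0.47, adjusted p = 0.995), and the counting error alone was 0.34 on the log2 scale. It was -0.43 without WT replicate 2 and -0.1 and -0.11 without *Crlf2-/-* replicates 2 and 3. The log2 ratio of *Tbx21* to *Gata3* was 1.34, 2.25 and 0.78 in WT and 0.83, 0.87 and 0.46 in *Crlf2-/-* hearts, with overlap and a difference of -0.74 (exact permutation p = 0.3, adjusted 0.375). Leaving out each library, the extremes of this difference were -1.076 (WT replicate 3 left out) and -0.342 (WT replicate 2 left out).

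The Th2 list was mostly out of reach: of 11 genes, 5 were tested, 0 had an unadjusted p under 0.05, and 3 had no fragment in any library. The best measured were the IL-4 receptor chain gene *Il4ra*, at 23.6 ± 1.37 FPKM in WT and 25 ± 3.14 FPKM in *Crlf2-/-* hearts (log2 fold change 0.08, 95% interval -0.19 to 0.35), and its signal carrier *Stat6*, at 23.7 ± 0.808 and 23.2 ± 1.39 FPKM (-0.03, 95% interval -0.25 to 0.19). Both are expressed far beyond T cells. Of the cytokine genes, named after their values were seen, *Il13* and *Il9* had 0 fragments in all libraries, *Il5* had 3 in WT and 5 in *Crlf2-/-* hearts in all, and *Il4* had 141 and 133. Type 2 innate lymphoid cells also depend on GATA3. Of 8 markers of these cells 3 were tested and 1 had no fragment. The costimulator gene *Icos*, which T cells also express, was lower with no overlap, at 0.563 ± 0.188 FPKM in WT and 0.181 ± 0.0634 FPKM in *Crlf2-/-* hearts (log2 fold change -1.22, unadjusted p = 0.00338, limma adjusted p = 0.315). The list summed to 2.82 to 3.57 FPKM in WT and 1.38 to 6.48 FPKM in *Crlf2-/-* hearts, where *Calca* alone reached 5.35 FPKM in replicate 1. Without *Calca* the sums were 1.27 to 1.32 and 0.674 to 1.12 FPKM. These still hold *Icos*, at 0.684, 0.659 and 0.347 FPKM in WT and 0.25, 0.125 and 0.168 FPKM in *Crlf2-/-* hearts. Sums without both genes were not computed, so no shift of the other markers is shown. Fitted log2 fold changes of the 3 tested markers ran from -1.22 to 0.01. The part of type 2 innate lymphoid cells in the *Gata3* values was not tested.

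The remaining helper programmes gave few countable genes. Of 10 Th17 genes 5 were tested and 0 had an unadjusted p under 0.05, with a median of -0.02. *Stat3* (log2 fold change -0.08, 95% interval -0.31 to 0.15) and *Il1r1* (-0.05, 95% interval -0.41 to 0.3) were the highest of these and are not limited to T cells. Of 7 follicular helper genes 4 were tested and 0 had an unadjusted p under 0.05, with a median of -0.192. The follicular helper regulator *Bcl6* had a log2 fold change of -0.13 (95% interval -0.43 to 0.17) and *Tox2* of -0.26 (95% interval -0.68 to 0.17). The cytokine genes *Il2*, *Il17a*, *Il17f*, *Il21* and *Il22*, named after their values were seen, had at most 5 fragments in any library.

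*Tcf7*, which encodes TCF1, was as level as *Cd4*. WT hearts held 88, 77 and 74 fragments (1.46, 1.35 and 1.29 FPKM) and *Crlf2-/-* hearts 109, 82 and 61 (1.87, 1.34 and 1.03 FPKM). The *Crlf2-/-* hearts held both the highest and the lowest value. The mean was 1.37 ± 0.084 FPKM in WT and 1.41 ± 0.426 FPKM in *Crlf2-/-* hearts, and the log2 fold change was 0.01 (SE 0.22, 95% interval -0.49 to 0.52, adjusted p = 0.997).

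*Lef1*, its close relative, was far lower per length, at 0.0496 ± 0.00284 FPKM in WT and 0.042 ± 0.0234 FPKM in *Crlf2-/-* hearts. Its fragments numbered 10, 10 and 9 in WT hearts, 13, 8 and 4 in *Crlf2-/-* hearts. As for *Tcf7*, the highest and the lowest library were both *Crlf2-/-*, replicates 1 and 3. The fit gave a log2 fold change of -0.09 (SE 0.23, 95% interval -0.61 to 0.44, adjusted p = 0.996). Its counting error of 0.394 was above the fitted SE, because the 0.1 FPKM added before the log exceeds the gene's own level and compresses its differences.

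*Bach2* was the one member whose groups did not overlap. WT hearts held 176, 181 and 224 fragments (0.769, 0.84 and 1.03 FPKM) and *Crlf2-/-* hearts 162, 115 and 156 (0.735, 0.496 and 0.696 FPKM). The gap between the lowest WT and the highest *Crlf2-/-* library was small. The mean was 0.88 ± 0.135 FPKM in WT and 0.642 ± 0.128 FPKM in *Crlf2-/-* hearts. In the fit its log2 fold change was -0.4 (SE 0.22, 95% interval -0.9 to 0.1), with an unadjusted p of 0.1 and a limma adjusted p of 0.852, so the difference did not exceed the spread between hearts by this test. Without *Crlf2-/-* replicate 2 the log2 fold change was -0.25 (unadjusted p = 0.295, limma adjusted p = 0.958). Counting error alone was smaller, with a ratio per depth of 0.729 and an exact 95% interval of 0.642 to 0.827. The antisense gene *Bach2os*, which shares exon bases with it, held 50, 31 and 44 fragments (WT) against 59, 53 and 31 (*Crlf2-/-*). Reads of the pair cannot be told apart where the counting ignored strand.

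BACH2 also acts in B cells. The 10 B cell markers, all detected, summed to 8.12 to 10.3 FPKM in WT and 7.68 to 12.4 FPKM in *Crlf2-/-* hearts, 0 had an unadjusted p under 0.05, and their median log2 fold change was 0.057, with 6 above 0 and 4 below. The antigen receptor chain gene *Cd79b* was at -0.18 (95% interval -0.65 to 0.28) and *Cd22* at 0.19 (95% interval -0.11 to 0.48), with no overlap between the groups. Summed over the list, the groups overlapped.

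Of 14 naive and central memory T cell genes outside the members, 12 were tested and 1 was lower at an unadjusted p under 0.05. It was *Ccr7*, the homing receptor of naive T cells and of migrating dendritic cells, at 2.5 ± 0.684 FPKM in WT and 1.42 ± 0.336 FPKM in *Crlf2-/-* hearts with no overlap (log2 fold change -0.76, adjusted p = 0.514). The median over the 12 was -0.124, with 4 above 0 and 8 below. Of 16 partners of TCF1 and LEF1 and Wnt target genes, 13 were tested and 0 had an unadjusted p under 0.05, with a median of -0.127. For 4 of the 13 the groups did not overlap, with *Crlf2-/-* below WT, against 6.37% of all tested genes. The list summed to 155 to 162 FPKM in WT and 145 to 147 FPKM in *Crlf2-/-* hearts. Most of this sum came from the beta-catenin gene alone, and the sum without it was not computed. Beta-catenin (*Ctnnb1*), among these 4, was at 107 ± 3.57 and 97.9 ± 2.06 FPKM (log2 fold change -0.13, 95% interval -0.36 to 0.11), and the adaptor *Pygo2* had the same log2 fold change (95% interval -0.4 to 0.14) with overlap.

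Among 9 genes of T lineage and CD4 lineage commitment, 8 were tested and 2 had an unadjusted p under 0.05, in opposite directions. *Bcl11b*, a T lineage commitment factor, was at 0.278 ± 0.0522 FPKM in WT and 0.109 ± 0.0307 FPKM in *Crlf2-/-* hearts (log2 fold change -0.85, adjusted p = 0.369). *Runx1*, a factor of many blood and stromal cells, was at 9.08 ± 0.192 and 10.7 ± 0.658 FPKM (0.24, adjusted p = 0.714). Over all 105 pathway genes outside the members, 79 were tested, 0 were called, and the median was -0.027. At an unadjusted p under 0.05, 1 was higher and 7 lower, where 3.22% and 3.36% of all tested genes were. The groups did not overlap for 13 with *Crlf2-/-* below WT and for 2 above. Of all tested genes, 6.37% were of the former kind and 11.7% of either.

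**Figure D4:**
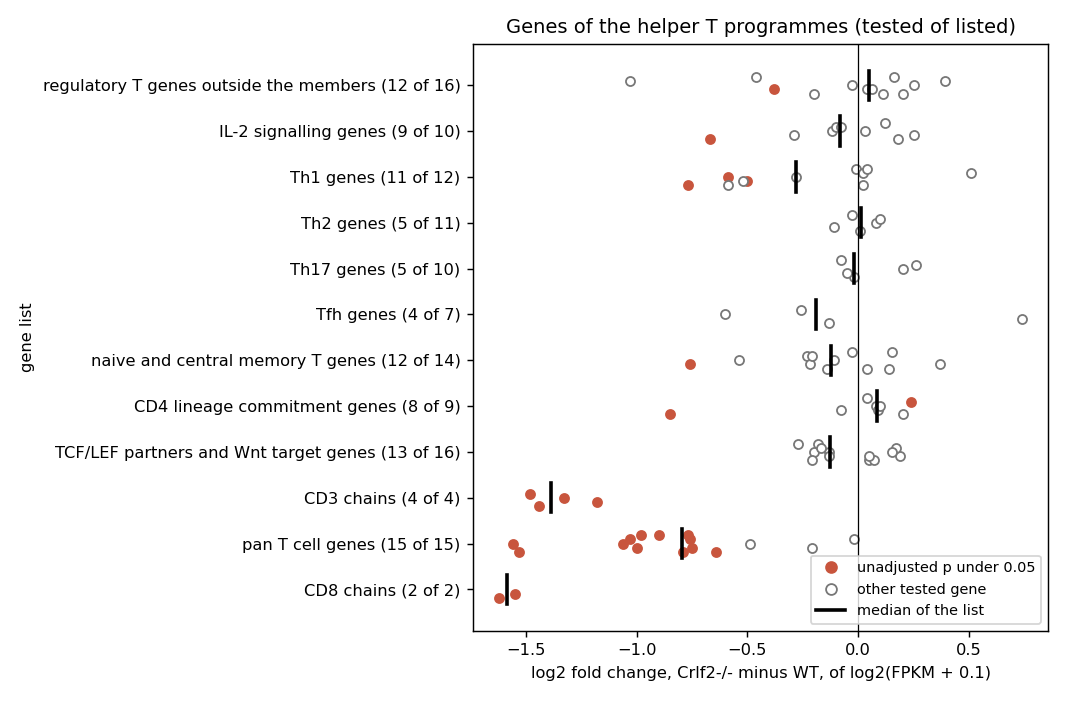
Fitted log2 fold change (horizontal axis, *Crlf2-/-* minus WT) of each tested gene (points, filled where the unadjusted p is under 0.05) in the helper T cell lists and, for comparison, in the CD3, pan T cell and CD8 lists, with the median of each list as a bar. Genes of the 9 helper programmes lie on both sides of 0, with medians from -0.28 to 0.085, while those of the CD3 and CD8 lists lie below 0, with medians of -1.385 and -1.584.

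Read library by library, the members shared no common shift. The median deviation of the 8 tested members from the WT mean, on the log2 scale, was 0.05, -0.064 and 0.055 in the WT hearts and 0.074, -0.068 and -0.3 in the *Crlf2-/-* hearts. The lowest was *Crlf2-/-* replicate 3, in which 6 of 8 members lay below the WT mean, while the median of all tested genes in that library was 0.006. Levels of other tissue components were read beside these genes. The 5 red blood cell genes summed to 226 to 370 FPKM in WT and 84.9 to 161 FPKM in *Crlf2-/-* hearts, all 5 lower at an unadjusted p under 0.05 with no overlap. Cardiomyocyte genes, 3 of 8 lower at that level, summed to 1020 to 1960 and 684 to 1350 FPKM, which overlap. No gene of either list was called. Their part in the values of the members was not tested.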

How the data were processed

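Heart RNA from 3 WT and 3 *Crlf2-/-* mice was sequenced, 1 library each. The authors trimmed reads with fastp, aligned them with HISAT2 2.0.5, used featureCounts for fragments per gene, and deposited the FPKM beside each gene's length. The submitters' processing notes name mm10 and hg38 as builds. The deposited length, a column of another kind, gave fragments: 100% of nonzero FPKM times length were whole multiples of 1 step per library (within 0.1 step). The table held 0 columns of other samples.

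Libraries were scaled by TMM (trimmed mean of M values). The test, on log2(FPKM + 0.1), was limma 3.58.1 in R 4.3.3 (lmFit, eBayes with trend and robust), with Benjamini-Hochberg adjustment over 15520 genes. FPKM printed are those deposited; group overlap was judged on scaled FPKM. Fold changes on this scale understate the change of low genes. Ratios used exact permutation tests (scipy 1.17.1). Counting intervals cover counting error only, since they pool the fragments of the 3 libraries of a group and ignore the spread between hearts. No source names molecular identifiers, so copies of a molecule could not be set aside. With 3 libraries per group, a limma p-value sets the group difference against a spread between hearts that is partly borrowed from all tested genes. The test was also run on simulated data with an assumed spread between libraries. It called 87 of 105 genes with a true log2 fold change of 1 in size, 95 of 95 at 2 and 14 unchanged genes. The assumed spread was not fitted to these hearts, where 2 of 15520 genes were called and *Trbc2*, at -1.56, was not. The simulated shares therefore do not give the power of the test in these data. The changed genes were drawn from better counted ones than *Foxp3*, *Lef1* and *Gata3*, so those members were not covered.

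The members and lists were chosen with earlier results of these data known. Named genes were the members, *Crlf2*, the genes of the ratios and, per list, up to 4 genes with the smallest unadjusted p under 0.05 or else the 2 with the highest FPKM. The retina text in the labels was set aside for the tissue label. Alternatives were other scalings, filters, pseudocounts, voom, a replicate block and leaving out each library.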

Additional observations from a re-analysis of the deposited data

How the results depend on the processing

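No member was called under any of the 16 alternatives. Of 247 values recomputed, 219 stayed the same by loose rules. Fold changes had to keep direction and call, ratios direction only, and counts a similar size. A ratio could thus lose its full separation, as *Foxp3* to the CD3 chains did at 0.01 FPKM added, and still count as the same. Members with an unadjusted p under 0.05 numbered 1 (*Tbx21*), 2 with voom (*Bach2* and *Tbx21*), 0 to 2 when leaving out each library, and 0 without WT replicate 1 and *Crlf2-/-* replicate 2, a setting chosen after the data were seen. Members with no overlap numbered 1 to 4 when leaving out each library, the most without WT replicate 3, when 24.8% of all genes did not overlap. Genes called over the whole table numbered 2, 6 with no filter, 4 with the replicate block, 3 with voom, 1 without the pair of libraries just named, and 1 to 14 when leaving out each library, the most without *Crlf2-/-* replicate 1. The replicate numbers did not pair the hearts (correlations of -0.016, 0.115 and 0.12), and the block changed no member's call. Leaving out each library, log2 fold changes ran from -0.142 to 0.183 for *Cd4*, -0.006 to 0.601 for *Il2ra*, -0.1 to 0.029 for *Lef1* and -0.198 to 0.21 for *Tcf7*, so the direction turned in each (*Lef1* and *Gata3* passed the filter in 3 of these 6 fits). For *Cd4* it was -0.031, -0.08 and -0.142 without WT replicate 2, WT replicate 3 and *Crlf2-/-* replicate 2, for *Il2ra* -0.006 without WT replicate 1 and -0.16 without the pair, for *Lef1* 0.029 without *Crlf2-/-* replicate 3, and for *Tcf7* -0.025 and -0.198 without WT replicate 3 and *Crlf2-/-* replicate 1. The log2 ratio of *Foxp3* to *Cd4* differed by -0.426 to 0.294 when leaving out each library, with 0.025, 0.294 and 0.069 without WT replicate 2, *Crlf2-/-* replicate 2 and *Crlf2-/-* replicate 3, and by 0.285 without the pair. With a pseudocount of 1, log2 fold changes shrank to -0.33 for *Tbx21*, -0.19 for *Bach2*, -0.04 for *Gata3*, 0.11 for *Il2ra* and 0.1 for *Ikzf2*, with no change of call. With 0.01 they grew to -1.17, -0.45, -0.33, 0.33 and 0.37 in the same order, and to -0.3 for *Lef1*. Voom gave -1.18 for *Tbx21*, -0.35 for *Gata3* and -0.37 for *Lef1*, again with no change of call. The cause of the turned directions was not tested. Depth limits *Foxp3*, *Lef1* and *Gata3*.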
